A study of Homo sapiens with 12 samples.

Results

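The 9 genes described here encode the core of the mitochondrial machinery that builds iron-sulfur (Fe-S) clusters: NFS1, LYRM4, ISCU, FDXR, FDX1, HSCB, GLRX5, ISCA1 and ISCA2. They were picked by name for this role from the 58735 gene IDs of the count table, but with earlier results of these data known. The rule uses no measured value of these genes. FDX2, the depleted component itself, was left out because it had too few counts. All 9 were among the 16891 genes with enough reads to be tested. In FDX2-iKO ES2 cells, FDX2 loss at 20% O2 went with lower GLRX5 mRNA (31.7% lower) and higher ISCU mRNA (30.4% higher), and none of the 9 passed the test for FDX2 loss at 3% O2. LYRM4 was lower at 3% than at 20% O2 in the depleted cells, and the other 6 members were not called in any of the 5 comparisons fitted over all 12 libraries, although 4 of them were under some alternative settings. Over the 12 libraries, the highest level of a member exceeded its lowest by 1.24-fold (NFS1) to 1.73-fold (HSCB).

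ES2 is a human ovarian carcinoma line. In the FDX2-iKO derivative, the cells' own FDX2 was disrupted by CRISPR-Cas9 and an HA-tagged, editing-resistant FDX2 cDNA was placed under a TetON promoter, so every library, controls included, comes from edited cells that carry the transgene. Doxycycline (Doxy) keeps the transgene on, and its withdrawal depletes FDX2. Poly(A) RNA was sequenced from 4 conditions, with 3 biological replicates in each: 20% O2 + Doxy and 20% O2 wo Doxy, both cultured for 6 days, and 3% O2 + Doxy and 3% O2 wo Doxy, both cultured for 4 days at 20% O2 and then 3 days at 3% O2. Every control of FDX2 loss contained Doxy and every depleted culture lacked it, so loss of FDX2 and absence of the drug cannot be told apart. Likewise, the oxygen level and the total length of culture cannot be told apart in these libraries. The study made 2 such clones and used clone #1 unless it said otherwise, so the cells are a single clone as a model, and no library carries wild-type FDX2 at its own locus.

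In the mitochondrial matrix, the cysteine desulfurase NFS1 takes sulfur from cysteine, with the small protein LYRM4 (ISD11) as its obligate partner, and passes it to the scaffold ISCU, on which a new 2Fe-2S cluster forms. Electrons for this step come from NADPH through ferredoxin reductase, FDXR, and a ferredoxin. FDX2 is the ferredoxin of cluster synthesis, whereas its paralog FDX1 is best known for steroid hydroxylation and lipoylation. The co-chaperone HSCB then helps to release the cluster from ISCU, the monothiol glutaredoxin GLRX5 carries it onward, and ISCA1 with ISCA2 builds 4Fe-4S clusters for aconitase, lipoyl synthase and respiratory complex I.

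The libraries held 24958386 to 34313637 counts assigned to genes (median 29621780), of which 2.38 to 3.26% fell on the mitochondrial genome. Replicates differed by a GC-dependent trend, the deviation of GC-rich minus GC-poor transcripts from the mean of their condition ranging from -0.28 to 0.39 on the log2 scale. Taken against the mean of all conditions, the condition means also differed in this measure, from -0.24 in 20% O2 wo Doxy to 0.19 in 3% O2 wo Doxy, with -0.01 in 20% O2 + Doxy and 0.06 in 3% O2 + Doxy. GLRX5 and ISCU kept their calls when this trend was removed. Replicate 1 of 3% O2 wo Doxy deviated most from its condition over all genes (SD of 0.23 on the log2 scale), and values without it are given where a result rests on it. The replicates of 20% O2 wo Doxy deviated least, with SDs of 0.062 to 0.071 against 0.08 to 0.23 in the other conditions. Every call of a member below is in a comparison that includes 20% O2 wo Doxy. The main fit shared 1 estimate of the spread of a gene over all conditions, and this inequality was not modelled. Of the epithelial and ovarian carcinoma markers, KRT8, KRT18, KRT7 and PAX8 passed the filter whereas EPCAM, WT1 and MUC16 stayed under 1 CPM, the mesenchymal markers VIM and FN1 were high, and the immune markers PTPRC and CD3E and the endothelial markers PECAM1 and VWF stayed under 1 CPM. The remaining immune marker, LYZ, had 1.25 to 2.35 CPM and the remaining endothelial marker, CDH5, 24.7 to 45.1 CPM (means of the conditions), and their part in the results was not tested. FDX2 itself could not check the Doxy labels: it had 2 to 13 counts per library, and 70.9% of its exonic bases are shared with readthrough genes on the same strand, AC011511.1 and AC011511.4.

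The 3 members that passed a test in at least 1 comparison are shown with short sequences from their promoters, to place the measured changes on the genome. GLRX5 lies at chr14:95533503-95544724 on the plus strand, ISCU at chr12:108562582-108569384 on the plus strand and LYRM4 at chr6:5102593-5260939 on the minus strand (GRCh38, GENCODE 29). All 9 members matched entries of the RefSeq promoter table (GRCh38.p14), and the 250 bases before each RefSeq start were searched on both strands for 4 motifs. CCAAT, the core letters bound by NF-Y, was present in 6 members (FDX1, FDXR, GLRX5, HSCB, ISCA1 and ISCA2) and in 32% of all promoters. The 9 members had 12 entries, and a member counted once if any of its entries matched. Percentages of all promoters are per entry, so the 2 measures are not alike. The GLRX5 window held 5 matches, a number reached by 0.319% of all promoters, and they are printed 5′ to 3′ on the strand of the gene with the motif in capitals (ATTGG where the motif runs on the other strand).
GLRX5, 234 bases before the start: catccagtctctCCAATtaactaacaaagc
GLRX5, 204 bases before the start: ggttgccgacgaCCAATagtaaggcagtag
GLRX5, 130 bases before the start: acgagcaacatgATTGGtggaatcgagtaa
GLRX5, 95 bases before the start: gatcagtattgtCCAATcacggagggcagt
GLRX5, 66 bases before the start: tttagagccggcCCAATgagggcctccagg
The 5 windows lie between chr14:95534804-95534833 and chr14:95534972-95535001, inside the GENCODE span of GLRX5, whose annotated start lies upstream of the RefSeq start. The ISCU window held no CCAAT and held 1 match to the NRF1 motif, whose letters are the capitals in the line for ISCU with the sixth left free, and which was found in 5.07% of all promoters and in no other member. The LYRM4 window held the core letters of the hypoxia response element, ACGTG (18.5% of all promoters, here on the other strand and so read as CACGT), beside the ATF4 element TGATGNAA (3.14% of all promoters), neither of which was found in another member.
ISCU, 90 bases before the start (chr12:108562496-108562525): gagcggtaaaGCGCAGGCGCaaagcttcgg
LYRM4, 193 bases before the start (chr6:5261126-5261155): gtgatgcaactgCACGTccctcgaatgcct
LYRM4, 204 bases before the start (chr6:5261136-5261165): aaggctctccgTGATGCAActgcacgtccc
Both LYRM4 lines show overlapping stretches of the same region, in which the motifs themselves do not overlap. The motifs were picked after the expression values were known, and a match of letters is neither a binding site nor a cause of the levels given here.

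The members were all moderately expressed. Per length (FPKM, from the exonic bases of each gene), the mean over 12 libraries was highest for GLRX5 (18.1), followed by FDX1 (13.1), ISCA1 (9.87), ISCU (9.44), HSCB (8.63), NFS1 (5.20), ISCA2 (4.70), LYRM4 (2.45) and FDXR (2.25). Several neighbours in this order did not separate. ISCA1 was above ISCU in 8 of 12 libraries, ISCU above HSCB in 9 and LYRM4 above FDXR in 8, whereas FDX1 was above ISCA1, HSCB above NFS1, NFS1 above ISCA2 and ISCA2 above LYRM4 in all 12. GLRX5 was above FDX1 in 10 of 12 libraries, both exceptions being libraries of 20% O2 wo Doxy. The summed level of the 9 members, in CPM (counts scaled to a common library size), was 266.8 ± 4.90 in 20% O2 + Doxy, 258.7 ± 1.86 in 20% O2 wo Doxy, 253.5 ± 5.77 in 3% O2 + Doxy and 248.8 ± 5.02 in 3% O2 wo Doxy (SD, n = 3 each). Since these are bulk cultures, fewer cells expressing a gene and less RNA per cell cannot be told apart.

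**Figure D1:**
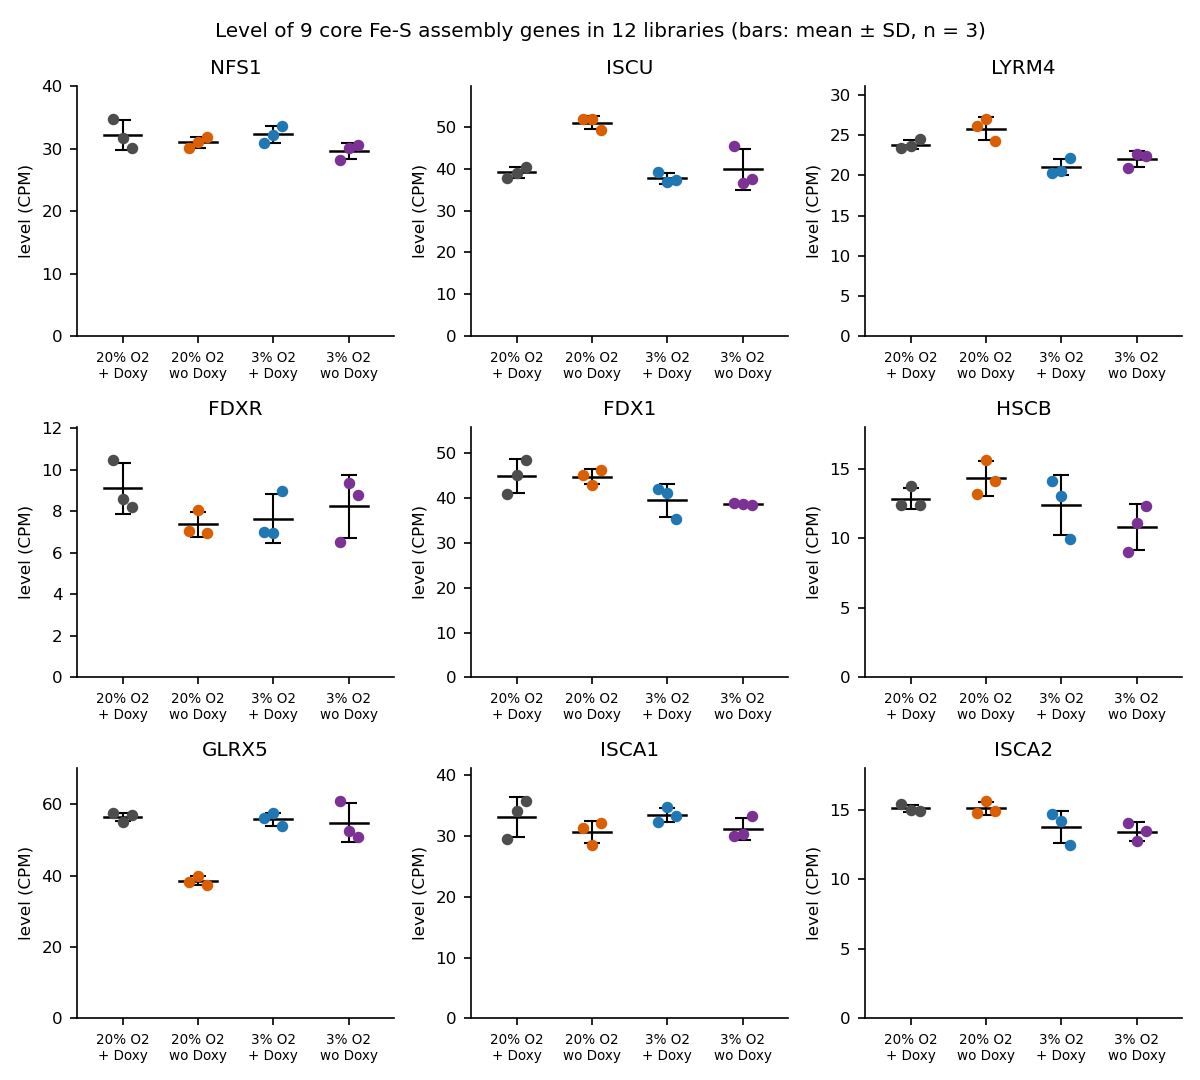
Level of each core Fe-S assembly gene in CPM (y axis, from 0) in the 3 libraries of each of 4 conditions (x axis), with bars for the mean ± SD. GLRX5 in 20% O2 wo Doxy (37.5 to 40.0 CPM) lies below every other library, and ISCU in 20% O2 wo Doxy (49.3 to 51.9 CPM) lies above every other library.

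FDX2 loss at 20% O2 was tested first, since it asks how the remaining assembly genes behave when a component is withdrawn under ambient oxygen. Of the 9 members, 1 rose and 1 fell at an adjusted p under 0.05 in edgeR's quasi-likelihood test, where 35.3% of all tested genes were called (17.6% higher, 17.7% lower). The median log2 fold change was -0.00 over the members and 0.01 over all tested genes. Replicates of both conditions did not overlap for 3 members, 1 higher and 2 lower, against 52.3% of all tested genes (26.5% higher, 25.8% lower). MKI67, a marker of proliferating cells, moved with this contrast, from 578 ± 8.90 to 223.5 ± 1.52 CPM (SD, n = 3 each; log2 fold change -1.37 ± 0.07 SE, edgeR adjusted p = 2.95e-07), and its part in the results for the members was not tested.

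At the site of synthesis, the desulfurase and its partner were not called. NFS1 had 34.8, 31.8 and 30.2 CPM with Doxy and 30.2, 31.1 and 31.9 CPM without, a log2 fold change of -0.06 (95% interval -0.20 to 0.09). LYRM4 had 23.3, 23.6 and 24.5 CPM with Doxy and 26.2, 27.0 and 24.2 CPM without, and its log2 fold change of 0.12 (95% interval -0.02 to 0.25) did not pass the test. The scaffold gene ISCU did pass it. ISCU had 37.8, 39.0 and 40.4 CPM with Doxy and 51.9, 51.8 and 49.3 CPM without. All 3 depleted libraries were above all 3 controls, and ISCU rose by 0.38 ± 0.08 (log2, SE), or 30.4% (95% interval 16.0 to 46.6%), with an edgeR adjusted p of 0.0028. No exonic base of ISCU is shared with another annotated gene, and its processed pseudogene ISCUP1 had 0 counts in every library.

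The genes of electron supply did not pass the test. FDXR, the reductase, had 10.5, 8.59 and 8.20 CPM with Doxy and 7.06, 8.06 and 6.96 CPM without. Its conditions did not overlap, by a margin between 8.06 and 8.20 CPM, and its log2 fold change was -0.30 ± 0.16 SE (edgeR adjusted p = 0.153), or -0.12 once a GC trend was taken out. FDX1, the paralog of the depleted protein, had 40.9, 45.2 and 48.6 CPM with Doxy and 45.1, 42.9 and 46.3 CPM without. The log2 fold change of FDX1 was -0.00, and its 95% interval of -0.17 to 0.17 bounds a change at 11.4% lower and 12.2% higher.

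Downstream of the scaffold, GLRX5 was the member with the lowest log2 fold change. It had 57.4, 55.2 and 56.9 CPM (1797, 1522 and 1936 counts) with Doxy and 38.3, 40.0 and 37.5 CPM (1193, 1265 and 1154 counts) without. The 2 conditions were thus well apart, with replicates within each differing by less than 3 CPM. GLRX5 fell by 0.55 ± 0.07 (log2, SE), or 31.7% (95% interval 24.2 to 38.4%), with an edgeR adjusted p of 1.12e-04, and this change was at the 7.46th percentile of the log2 fold changes of all tested genes. Part of GLRX5, 18.2% of its exonic bases, overlaps SNHG10 and SCARNA13 on the opposite strand, and reads of the 2 strands cannot be told apart where strand was not used in counting. SNHG10, a noncoding RNA named here because of this overlap, was also lower without Doxy at 20% O2 (log2 fold change -0.34, edgeR adjusted p = 0.0305) at a mean of 8.29 against 10.5 CPM, and its part in the GLRX5 value was not tested.

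The co-chaperone and the 4Fe-4S assembly genes did not pass the test. HSCB had 12.4, 13.8 and 12.4 CPM with Doxy and 13.2, 15.7 and 14.1 CPM without (log2 fold change 0.16, 95% interval -0.15 to 0.46). ISCA1 had 29.5, 34.1 and 35.8 CPM with Doxy and 31.3, 28.5 and 32.0 CPM without, a log2 fold change of -0.11 (edgeR adjusted p = 0.298), which passed the threshold once replicate 1 of 20% O2 + Doxy was left out (-0.22, edgeR adjusted p = 0.0337) or a GC trend was removed (-0.18, edgeR adjusted p = 0.0376). ISCA2, its partner, had 15.4, 15.04 and 14.9 CPM with Doxy and 14.8, 15.7 and 14.9 CPM without, a log2 fold change of 0.00 (95% interval -0.15 to 0.16). ISCA2 thus varied least among the 9 in these 6 libraries.

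**Figure D2:**
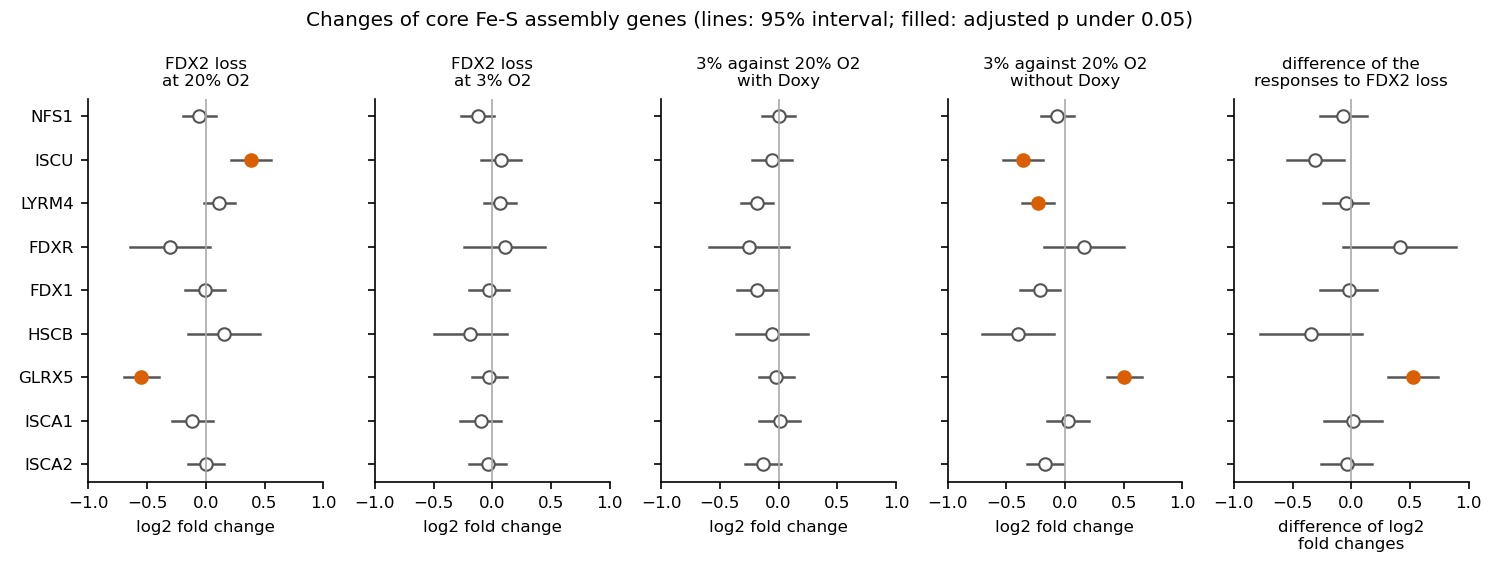
Log2 fold change of each core Fe-S assembly gene (x axis) in 5 comparisons (panels), with lines for the 95% interval and filled points for an adjusted p under 0.05 in edgeR's quasi-likelihood test. GLRX5 and ISCU lie on opposite sides of 0 for FDX2 loss at 20% O2 and near 0 for FDX2 loss at 3% O2, and the last panel shows the difference between these responses.

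FDX2 loss at 3% O2 was then compared in the same way. None of the 9 members was called by edgeR, where 7.31% of all tested genes were (4.2% higher, 3.11% lower). None had an unadjusted p under 0.05, and DESeq2 also called 0. The median log2 fold change was -0.03 over the members and 0.04 over all tested genes. MKI67 fell by 0.59 on the log2 scale in this contrast (655 ± 75.1 to 435.6 ± 8.35 CPM, SD, n = 3 each; edgeR adjusted p = 7.02e-04).

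GLRX5 had 56.1, 57.5 and 53.8 CPM in 3% O2 + Doxy and 61.0, 52.7 and 50.9 CPM in 3% O2 wo Doxy. The conditions overlapped, with replicate 1 of the depleted cells above every control, and the log2 fold change was -0.03 (95% interval -0.17 to 0.12) or -0.11 without that replicate. ISCU had 39.2, 36.7 and 37.2 CPM with Doxy and 45.4, 36.5 and 37.6 CPM without, where the same replicate 1 was again the highest. The log2 fold change of ISCU was 0.08 (95% interval -0.09 to 0.25) and -0.03 without that replicate.

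The other members gave small values as well. NFS1, the desulfurase, was the only member whose conditions did not overlap (24.6% of all tested genes did not, 13.4% higher and 11.2% lower), with 31.0 to 33.7 CPM with Doxy and 28.2 to 30.7 CPM without, and its log2 fold change of -0.12 (95% interval -0.26 to 0.02) did not pass the test. HSCB had the widest intervals beside FDXR: its log2 fold change was -0.19 (95% interval -0.50 to 0.12), and that of FDXR was 0.11 (95% interval -0.24 to 0.45). The values of LYRM4 (0.07), FDX1 (-0.03), ISCA1 (-0.10) and ISCA2 (-0.04) lay within 0.10 of 0.

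An interaction of Doxy and oxygen was tested directly, as the log2 fold change at 3% O2 minus that at 20% O2. Of the 9 members, 1 was called, against 7.29% of all tested genes (3.21% with a higher value at 3% O2, 4.08% with a lower one). GLRX5 gave a difference of 0.52 ± 0.10 (SE; 95% interval 0.31 to 0.73) with an edgeR adjusted p of 0.00878, which reflects a fall of 31.7% at 20% O2 and a value of -1.72% at 3% O2. With single libraries left out, the GLRX5 difference ranged from 0.44 to 0.58. The difference for ISCU was -0.31 ± 0.11 (SE), with an unadjusted p of 0.0171 and an adjusted p of 0.12 in edgeR, so it was not called. Without replicate 1 of 3% O2 wo Doxy it became -0.41 (edgeR adjusted p = 0.017), which made 2 members called. FDXR (0.41, 95% interval -0.07 to 0.90) and HSCB (-0.34, 95% interval -0.78 to 0.09) had differences of similar size with wide intervals, and the other 5 members lay between -0.07 and 0.01. The FDXR transcript is 61.8% GC, and its response at 20% O2, part of this difference, was smaller once a GC trend was taken out.

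**Figure D3:**
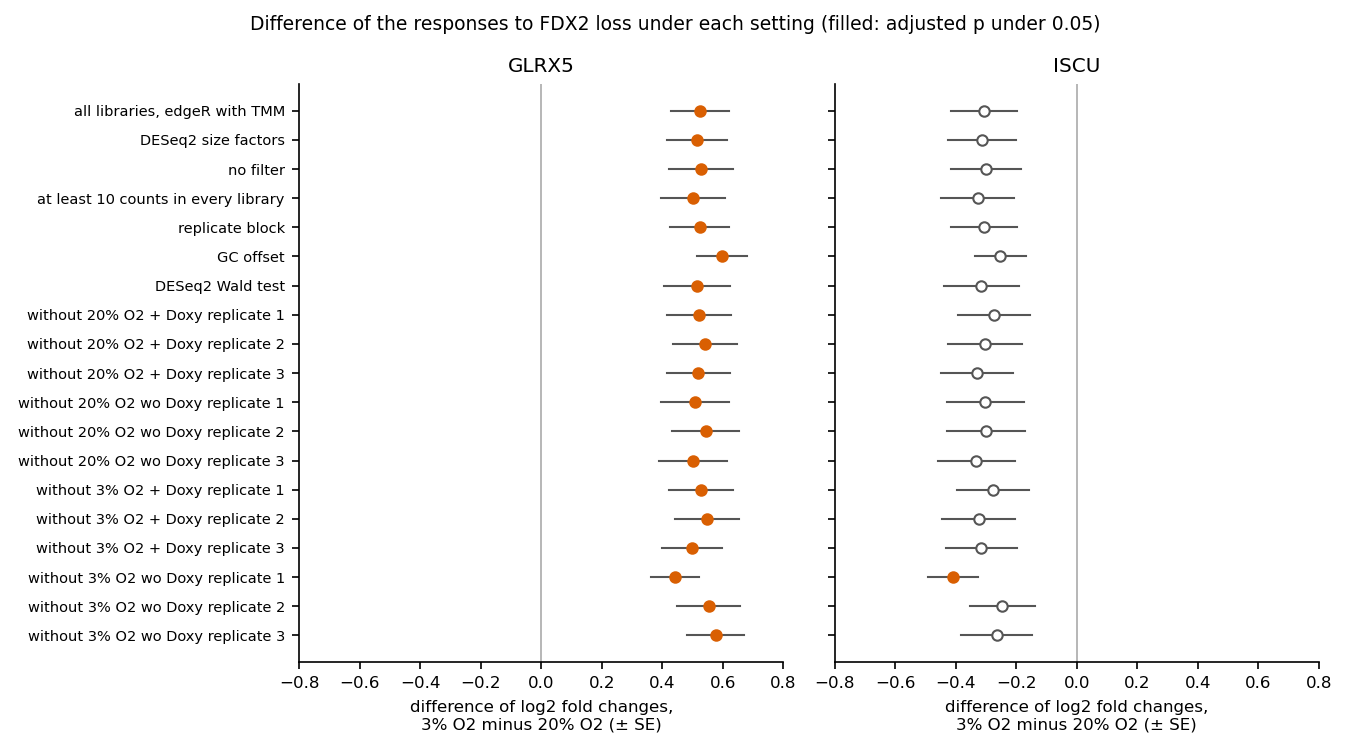
Difference of the log2 fold changes for FDX2 loss, 3% O2 minus 20% O2 (x axis, ± SE), for GLRX5 and ISCU under each setting (rows), filled where the adjusted p was under 0.05. GLRX5 lies between 0.44 and 0.60 and is filled in every row, whereas ISCU is filled only without replicate 1 of 3% O2 wo Doxy.

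The effect of oxygen was compared separately in cells with and without FDX2. These contrasts use the same 4 conditions as those above and share their libraries, so they are not independent evidence. With Doxy, edgeR called none of the 9 members, against 2.02% of all tested genes (1.63% higher, 0.385% lower). DESeq2 called 0 as well, and 2 members had an unadjusted p under 0.05 in edgeR. LYRM4 had 23.3, 23.6 and 24.5 CPM at 20% O2 and 20.3, 20.5 and 22.1 CPM at 3% O2. The LYRM4 replicates did not overlap (as for 15.4% of all tested genes, 8.83% higher and 6.61% lower), yet its log2 fold change of -0.18 did not pass (edgeR unadjusted p = 0.0124, adjusted p = 0.196). FDX1 had 40.9, 45.2 and 48.6 CPM at 20% O2 and 42.0, 41.1 and 35.3 CPM at 3% O2, with a log2 fold change of -0.19 (edgeR unadjusted p = 0.0351, adjusted p = 0.328) that passed only once a GC trend was removed (-0.17, edgeR adjusted p = 0.0354). ISCA2 also did not overlap, by 14.9 against 14.7 CPM, with a log2 fold change of -0.13 (95% interval -0.29 to 0.02). GLRX5 (-0.02), ISCU (-0.05), NFS1 (0.00), ISCA1 (0.01), HSCB (-0.06) and FDXR (-0.25) were not called.

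Without Doxy, 1 member was higher and 2 were lower at 3% than at 20% O2, where 25.8% of all tested genes were called (13.9% higher, 11.9% lower). The count of 3 members became 5 with DESeq2's Wald test and 6 when only these 2 conditions were fitted. The median log2 fold change was -0.17 over the members and 0.07 over all tested genes. MKI67 was 0.96 higher on the log2 scale at 3% O2 (edgeR adjusted p = 8.17e-06). GLRX5 was 42.1% higher at 3% O2 (95% interval 28.1 to 57.6%; log2 fold change 0.51 ± 0.07 SE, edgeR adjusted p = 4.63e-04), and its 50.9 to 61.0 CPM at 3% O2 overlapped the 55.2 to 57.4 CPM of 20% O2 + Doxy. With single libraries left out, this log2 fold change of GLRX5 ranged from 0.42 to 0.56. ISCU was 22.0% lower at 3% O2 (log2 fold change -0.36 ± 0.08 SE, edgeR adjusted p = 0.00697), and its 36.5 to 45.4 CPM overlapped the 37.8 to 40.4 CPM of 20% O2 + Doxy.

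LYRM4, the partner of the desulfurase, was lower at 3% O2 without Doxy, with 20.9, 22.7 and 22.4 CPM against 26.2, 27.0 and 24.2 CPM. All 3 libraries at 3% O2 were below all 3 at 20% O2, and LYRM4 fell by 0.23 ± 0.06 (log2, SE), or 14.7%, with an edgeR adjusted p of 0.0197. This call was the least stable of the set: it was lost without any 1 of 3 libraries (adjusted p of 0.0516, 0.0638 and 0.0674 in edgeR without replicate 1 or 2 of 20% O2 wo Doxy or replicate 1 of 3% O2 wo Doxy).

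Replicates of the 2 conditions without Doxy did not overlap for 6 of the 9 members, 1 higher and 5 lower at 3% O2, against 49.4% of all tested genes (27.4% higher, 22% lower). Besides GLRX5, ISCU and LYRM4 these were FDX1, HSCB and ISCA2. FDX1 had 45.1, 42.9 and 46.3 CPM at 20% O2 and 39.0, 38.6 and 38.5 CPM at 3% O2, with a log2 fold change of -0.21 (edgeR adjusted p = 0.0696). HSCB had 13.2, 15.7 and 14.1 CPM at 20% O2 and 9.06, 11.2 and 12.3 CPM at 3% O2, with a log2 fold change of -0.40 (edgeR adjusted p = 0.0574). Both lay near the threshold. Whether the replicate numbers mark a true pairing of these 2 conditions was not established. Same-numbered libraries correlated in their deviations from the condition means (r of 0.25 to 0.36). Differently numbered libraries of 20% O2 + Doxy and 3% O2 + Doxy, however, reached r of 0.82. With the replicate as a block in the 6 libraries without Doxy alone, 5 members were called, FDX1 (-0.24, edgeR adjusted p = 0.0233) and HSCB (-0.44, edgeR adjusted p = 0.0275) being added. The same 6 libraries gave 6 called members with no block, and the block over all 12 libraries gave the same 3 calls as no block. ISCA2 had 14.8 to 15.7 CPM at 20% O2 and 12.8 to 14.1 CPM at 3% O2 (log2 fold change -0.17, edgeR adjusted p = 0.0977). NFS1 (-0.07), ISCA1 (0.03) and FDXR (0.16) overlapped between the conditions.

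The 21 other Fe-S assembly genes, a list of mitochondrial partners and transporters, late targeting factors and the cytosolic assembly (CIA) machinery, were all tested. In FDX2 loss at 20% O2, 1 rose and 6 fell, with a median log2 fold change of -0.06. The total share was near that of all tested genes (35.3% called). By direction it was not: the share that rose was below the 17.6% of all tested genes, and the share that fell was above the 17.7%. This difference was not tested. LIAS, the lipoyl synthase that is itself an Fe-S enzyme, rose by 0.42 ± 0.13 SE (49.9 ± 2.70 to 66.9 ± 1.65 CPM, SD, n = 3 each; edgeR adjusted p = 0.0233). NDUFAB1, the mitochondrial acyl carrier protein that binds the NFS1 and LYRM4 complex, fell by 0.36 ± 0.10 SE (edgeR adjusted p = 0.0126). MMS19 and CIAO2A, components of cytosolic targeting, fell by 0.34 ± 0.09 SE (edgeR adjusted p = 0.0125) and by 0.33 ± 0.06 SE (edgeR adjusted p = 0.00148). The genes that fell were 2 of the 6 partners and transporters and 4 of the 9 CIA genes, and the difference between these groups was not tested.

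At 3% O2, where 7.31% of all tested genes were called, FDX2 loss called only GRPEL1 among the 21, the nucleotide exchange factor of the mitochondrial Hsp70 that works with HSCB (log2 fold change -0.20 ± 0.04 SE, edgeR adjusted p = 0.0207). The call was lost in 4 of the 6 fits that left out a library of this contrast, namely replicate 1 or 2 of 3% O2 + Doxy or replicate 2 or 3 of 3% O2 wo Doxy. GRPEL1 was also lower at 20% O2 (91.8 ± 2.62 to 75.9 ± 0.82 CPM, SD, n = 3 each). In edgeR, oxygen called 0 of the 21 with Doxy (1 at an unadjusted p under 0.05, and 0 by DESeq2), against 2.02% of all tested genes. Without Doxy it called 5, a share near the 25.8% of all tested genes, of which 3 were higher at 3% O2, among them MMS19 (0.32, edgeR adjusted p = 0.0244) and NUBP1 (0.25, edgeR adjusted p = 0.0373), and 2 were lower, among them NUBPL (-0.29, edgeR adjusted p = 0.0221). This count ranged from 0 to 8 when single libraries were left out, and was 0 without replicate 1 or 3 of 20% O2 wo Doxy and 8 without replicate 1 of 3% O2 wo Doxy. In the interaction, edgeR called 0 of the 21 (4 at an unadjusted p under 0.05, and 1 called by DESeq2), against 7.29% of all tested genes, and their median of 0.05 equalled that of all tested genes. By group, the median was 0.27 for the CIA genes, where all 9 were positive, as were 9498 of all 16891 tested genes. The GC of the CIA transcripts ran from 41% (CIAO2A) to 64.6% (NDOR1). The condition means differed in a GC-dependent trend, and its part in this median was not tested. The median was -0.12 for late targeting and -0.03 for partners and transporters, and the difference between these groups was not tested.

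**Figure D4:**
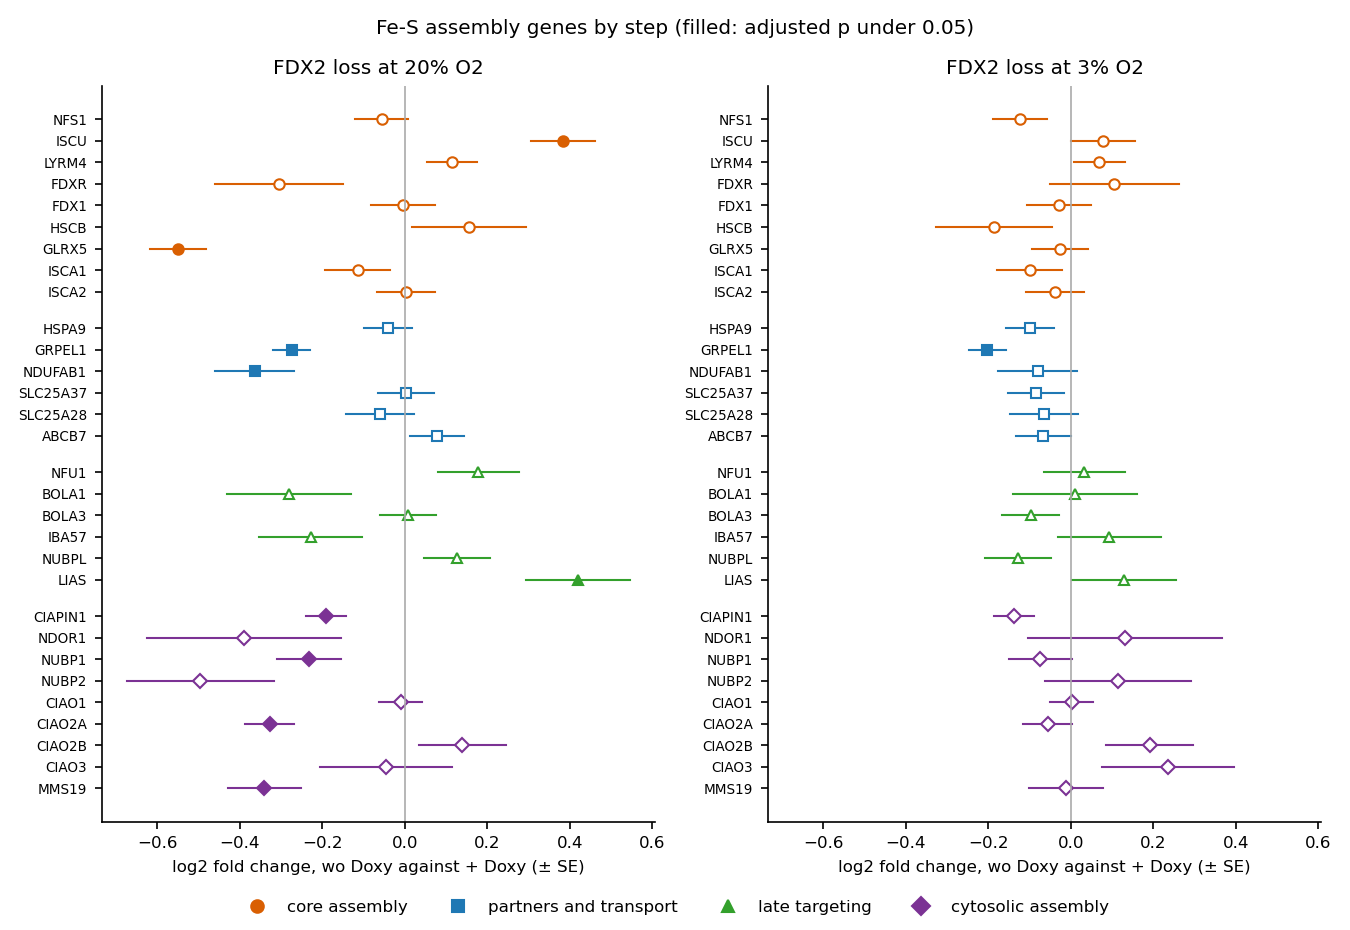
Log2 fold change for FDX2 loss (x axis, ± SE) at 20% O2 (left) and 3% O2 (right) for the 9 core members and the 21 other Fe-S assembly genes, grouped by step, filled where the adjusted p was under 0.05. At 20% O2 there are 2 filled core genes and 7 filled others, and at 3% O2 only GRPEL1 is filled.

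The members did not share 1 pattern over the 12 libraries. Likeness was measured as the root mean square difference of log2 CPM after each gene was centred on its own mean. Among the members, FDX1 and ISCA2 were most alike (0.08), and ISCU and GLRX5 were farthest apart (0.40). Among 10608 tested genes with a symbol and a mean of at least 5 CPM, those most like GLRX5 were SNRNP25 (0.04) and PPM1G (0.05), where GLRX5 varied by 0.24 about its own mean. Those most like ISCU were WDR35 (0.05) and SCNM1 (0.05), where ISCU varied by 0.19, and those most like LYRM4 were MED8 (0.05) and KRTAP2-3 (0.06), where LYRM4 varied by 0.12.

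Besides GLRX5, 3 members share exonic bases with other genes. HSCB shares 20.6% of its exonic bases with CHEK2, NFS1 shares 6.26% with ROMO1 and AL109827.1, and ISCA2 shares 3.36% with NPC2, whereas LYRM4, FDXR, FDX1, ISCA1 and ISCU share none. NPC2, on the strand opposite to ISCA2, rose by 0.85 in FDX2 loss at 20% O2 (edgeR adjusted p = 2.89e-06), while the log2 fold change of ISCA2 was 0.00. CHEK2, opposite to HSCB, had 0.10 against 0.16 for HSCB in that contrast and -0.18 against -0.40 in oxygen without Doxy. It had 0.04 against -0.19 in FDX2 loss at 3% O2 and -0.13 against -0.06 in oxygen with Doxy. Neither CHEK2 nor ROMO1 was called in any comparison. SNHG10, opposite to GLRX5, had -0.34 against -0.55 for GLRX5 in FDX2 loss at 20% O2 and -0.03 against -0.03 at 3% O2. In oxygen, SNHG10 had -0.02 against -0.02 with Doxy and 0.29 against 0.51 without (edgeR adjusted p = 0.0724 for SNHG10). In the interaction, SNHG10 had 0.30 against 0.52 (edgeR adjusted p = 0.252 for SNHG10). The part of these genes in the values of the members was not tested. Of 9 annotated pseudogenes of the members, ISCA1P1 had 6 to 16 counts per library and the others had 0 to 3.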

How the data were processed

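Raw counts per gene were deposited for 12 libraries. Per the labels and the study's methods, the authors selected poly(A) RNA with oligo-dT beads, ran it on a DNBSEQ-T7 and used STAR, featureCounts and GRCh38, and they normalised with DESeq2, although the values used here are counts before that step. Versions of STAR and featureCounts, the strand setting and the treatment of multimapping reads were not given in the sources used here. For replicates 1 and 2 of 20% O2 + Doxy, a read file was lost in transfer according to the submitters, and their counts were used. All 58735 IDs matched GENCODE 29, and 58207 had a current symbol.

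Genes were filtered with filterByExpr (minimum count 10, minimum total 15), scaled by TMM and fitted in edgeR 4.0.16 (R 4.3.3) with 1 mean per condition over all 12 libraries, which left 8 residual degrees of freedom. Quasi-likelihood tests were two-sided, and p-values were adjusted by the Benjamini-Hochberg method over all tested genes. CPM values used TMM-scaled library sizes, and FPKM divided them by the exonic bases of a gene. Counts limit precision: members had 162 to 1936 per library. The script was tested on simulated data with 200 genes changed 2-fold. Of these, edgeR recovered 126 for FDX2 loss at 20% O2 and 94 for the interaction, with 6 and 5 false calls. DESeq2 recovered 137 and 115, with 33 and 35 false calls. Many changes of this size were thus missed in the simulation of 16891 genes, so a gene that was not called may still have changed. For the members, the 95% intervals of the main fit all excluded a 2-fold change. The widest were those of FDXR (-0.07 to 0.90, log2) and HSCB (-0.78 to 0.09) in the interaction. Smaller changes of members that were not called remain possible.

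Members and lists were chosen with earlier results of these data known. Named were all members, FDX2, MKI67, at most 4 called genes of the other list per comparison and the 2 genes most like each called member. GRPEL1 at 20% O2, SNHG10, NPC2, the motifs and the shared-sequence genes were chosen after values were seen. Pairing was checked by correlating deviations from condition means over 11124 genes: same-numbered libraries of the 2 conditions without Doxy gave r of 0.25 to 0.36, and other numbers -0.43 to 0.07, and no other pair of conditions was all above 0.1. Differently numbered libraries of 20% O2 + Doxy and 3% O2 + Doxy reached r of 0.82, so this check does not establish a pairing. Alternatives were DESeq2 1.42.0 (size factors and Wald test), other filters and thresholds, a replicate block, a GC offset, the compared conditions alone and leaving out each library. Of the cell type markers, 1 is not reported here.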

Additional observations from a re-analysis of the deposited data

Results flagged for a closer look

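GLRX5 is listed because its log2 fold change for FDX2 loss was not the same at both oxygen levels: the value at 3% O2 minus that at 20% O2 was 0.52 ± 0.10 (log2, SE), with an edgeR adjusted p of 0.00878 for the interaction of Doxy and oxygen. The level fell at 20% O2, where all 3 depleted libraries were below all 3 controls, and the conditions overlapped at 3% O2. MKI67 gave a difference in the same direction (0.78, edgeR adjusted p = 0.00112), and its part in the GLRX5 result was not tested. SNHG10, which overlaps GLRX5 on the opposite strand, gave 0.30 (edgeR adjusted p = 0.252), and its part was not tested either. No formal outlier test was run, since each condition has 3 libraries.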

How the results depend on the processing

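GLRX5 and ISCU kept direction and call under every alternative run in FDX2 loss at 20% O2 (13 each) and in oxygen without Doxy (15 each), as did GLRX5 in the difference (18, highest edgeR adjusted p 0.0419). LYRM4 lost its call in 4 of 15, with an adjusted p of 0.0615 with no filter. The cause of none of the changes was tested. Of 648 alternative values of members, 51 turned sign, none of a called member, none past the threshold, and all of results under 0.17 in size.

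For ISCA2 in FDX2 loss at 20% O2 these were -0.0078 (DESeq2 size factors), -0.0077 (DESeq2 Wald), -0.035 (no filter) and -0.064 (GC offset). For NFS1 in oxygen with Doxy they were -0.0064, -0.0062, -0.015 and -0.012 in the same order and -0.0063 with the compared conditions alone. No filter gave -0.0068 for ISCA1 in oxygen with Doxy. At least 10 counts in every library gave 0.0056 for FDX1 in FDX2 loss at 20% O2 and -0.0076 for ISCA1 in the difference. The GC offset gave 0.022 for FDX1 in FDX2 loss at 3% O2, 0.090 for FDX1 and 0.064 for ISCA2 in the difference, and -0.13 for FDXR in oxygen without Doxy. The compared conditions alone gave -0.0037 for ISCA1 in oxygen without Doxy.

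Leaving out single libraries gave ranges that crossed 0 for FDX1 (-0.099 to 0.056 at 20% O2, -0.10 to 0.020 at 3% O2, -0.098 to 0.047 in the difference), ISCA2 (-0.040 to 0.0064, -0.10 to 0.010 and -0.11 to 0.0077), ISCA1 (-0.087 to 0.072 in oxygen with Doxy, -0.036 to 0.055 without, -0.045 to 0.10 in the difference), GLRX5 (-0.11 to 0.027 at 3% O2, -0.040 to 0.0076 in oxygen with Doxy), HSCB (-0.16 to 0.080) and NFS1 (-0.045 to 0.039) in oxygen with Doxy, and ISCU (-0.026 to 0.14 at 3% O2).

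Members called became 1 in oxygen with Doxy under the GC offset, and 5 (DESeq2 Wald) or 6 (compared conditions alone) in oxygen without Doxy. They ranged over 2 to 3, 0 to 0, 0 to 0, 2 to 4 and 1 to 2 in the 5 comparisons without single libraries. Of the other assembly genes, 2 were called in FDX2 loss at 20% O2 at an adjusted p under 0.01, with 0 in FDX2 loss at 3% O2 and 0 in oxygen without Doxy. FDX2 loss at 3% O2 gave 0 with no filter or with the compared conditions alone, and 2 under the GC offset or DESeq2 Wald. Oxygen without Doxy gave 2 with no filter, and the difference gave 3 under the GC offset and 1 under DESeq2 Wald. Without single libraries these counts ranged over 5 to 9, 0 to 1, 0 to 0, 0 to 8 and 0 to 3.

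With the replicate block over all 12 libraries, no call of a member changed (GLRX5 in oxygen without Doxy 0.50), and the other assembly genes called were 0 in FDX2 loss at 3% O2 and 1 in oxygen without Doxy. In the 6 libraries without Doxy, an alternative added after seeing the data, the block called 5 members, with ISCA1 at -0.0043, and with a GC offset 4 members and 2 of the other genes, with FDXR at -0.16. FDXR (162 to 328 counts) and HSCB (225 to 496 counts) had the widest intervals.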
